A study of Homo sapiens with 8 samples.

Results

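Mucins and trefoil factors form the mucous coat of epithelia, and their 10 members followed here were *MUC1*, *MUC4*, *MUC5AC*, *MUC5B*, *MUC13*, *MUC16*, *MUC20*, *TFF1*, *TFF2* and *TFF3*. They were found by matching each symbol to its NCBI gene number among the 25702 gene identifiers of the count tables. The tables listed 9 of the 10, and *MUC5AC* is not analysed here. Their summed counts came to no more than 111 to 235 reads per library, or 2.99 to 6.74 CPM (counts-per-million units, scaled to the normalized library size). Of the 14333 genes with enough reads for a test, 4 were members (*MUC1*, *MUC13*, *TFF1* and *TFF2*). None of these 4 passed the main test between libraries labelled with an *EN1* hairpin and those labelled as scramble control. Neither did any other of the 14333 genes (0% called).

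Mucins are large glycoproteins whose central repeats carry dense O-linked sugar chains. Membrane mucins (*MUC1*, *MUC4*, *MUC13*, *MUC16*, *MUC20*) stay anchored at the cell surface, where their cytoplasmic tails can take part in signalling, whereas gel-forming mucins (*MUC5AC*, *MUC5B*) are secreted and build the mucus layer. Trefoil factors (*TFF1*, *TFF2*, *TFF3*) are small secreted peptides released together with mucus, which protect and help to repair the gut lining. Normal pancreatic ducts make little of the gastric-type products, and their appearance in precursor lesions and in pancreatic ductal adenocarcinoma (PDA) has made several of them tumour markers.

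RNA-seq was performed on SUIT2, an established human PDA cell line grown from a metastasis. The study asked which transcripts depend on *EN1*, which encodes a homeobox transcription factor. All 8 libraries came from cells carrying a short hairpin RNA (shRNA), delivered by lentivirus: 4 were labelled shScr (scramble control), 2 were labelled shEN1 #1 and 2 were labelled shEN1 #2, the numbers standing for different *EN1*-targeting constructs. A single line was used, and nothing states whether libraries of a label came from separate infections or cultures, so p-values measure the spread between these libraries, which may be technical.

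Depth was even, with 33423590 to 37810604 counts per library. The targeted gene did not follow its label. *EN1* stood at 4.01 ± 1.06 CPM (SD, n = 4) under shScr and at 4.81 ± 2.37 CPM (SD, n = 4) under shEN1, a difference that the exact two-sided permutation test did not resolve (p = 0.543 over 70 assignments, smallest possible 0.0286). Both libraries labelled shEN1 #1 held more *EN1* (5.77 and 5.41 CPM) than any library labelled shScr (2.51 to 4.94 CPM), while shEN1 #2 replicate 1 held 1.35 CPM and replicate 2 held 6.70 CPM. For that reason shScr and shEN1 are used below only as names of labels. The study also measured *EN1* by RT-qPCR in SUIT2 cells carrying these kinds of hairpins, a measurement that is not analysed here. Across all genes, the closest of the 28 pairs of libraries joined different labels, shScr replicate 4 and shEN1 #2 replicate 1 (root mean square difference 0.395 in log2 CPM, against up to 0.841 for other pairs). In 2 further pairs across labels, each library was also the other's nearest: shScr replicate 2 with shEN1 #2 replicate 2 (0.488), and shScr replicate 3 with shEN1 #1 replicate 1 (0.512). Epithelial markers summed to 11110 to 17630 CPM per library, which fits the label of a carcinoma line. Fibroblast markers summed to 1.17 to 4.22 CPM with 4 of 6 at 0 throughout, endothelial markers to 0.316 to 0.676 CPM with 2 of 4 at 0, and leukocyte markers to 1.22 to 4.12 CPM with 2 of 5 at 0 (*PTPRC* and *CD3E*).

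Precision did not follow the number of reads alone: the standard error of the log2 fold change was 0.48 for *MUC1* with 613 reads in all and 0.49 for *KRT19* with 272673. In a library at 0 reads, a floor of 3 counts allows a level of up to 0.0762 to 0.0922 CPM, depending on the library. Low counts also tended to be even: among genes with 1 to 20 reads in a library, 68.3% to 72.4% of counts were even numbers, against 49.1% to 51.1% among genes with at least 1000 reads. Whether each fragment was counted once or by both of its mates is not given in the sources used here, and a floor covers counting error only.

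The membrane mucin *MUC1* (Entrez 4582, chr1:155158300-155162707 of GRCh37, minus strand), a heavily glycosylated protein that is overproduced in many carcinomas, had the most reads of any member, 613 over the 8 libraries. The shScr libraries held 92, 71, 104 and 60 reads (2.77, 1.92, 2.98 and 1.60 CPM), the shEN1 #1 libraries 27 and 115 (0.756 and 3.38 CPM), and the shEN1 #2 libraries 44 and 100 (1.12 and 3.07 CPM). Within each construct 1 library thus lay below all 4 shScr libraries and the other above them. Means were 2.32 ± 0.665 CPM for shScr and 2.08 ± 1.34 CPM for shEN1 (SD, n = 4 each), and the range of the shScr libraries lay inside that of the shEN1 libraries.

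*MUC13* (Entrez 56667, chr3:124624289-124672663, minus strand) encodes a membrane mucin of the gut epithelium that carries EGF-like domains. Its counts were 12, 4, 64 and 10 under shScr (0.362, 0.108, 1.84 and 0.267 CPM), 43 and 26 under shEN1 #1 (1.204 and 0.765 CPM), and 6 and 42 under shEN1 #2 (0.152 and 1.29 CPM). A single shScr library, replicate 3, was the highest of all 8, whereas 3 of the 4 shEN1 libraries exceeded the other 3 shScr libraries. The label means of 0.643 ± 0.802 and 0.853 ± 0.521 CPM (SD, n = 4 each) differed by less than either spread.

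*MUC20* and *MUC4* are neighbours on chromosome 3, with 5.64 kb between them. *MUC20* (Entrez 200958, chr3:195447755-195467994, plus strand), which encodes a small membrane mucin reported to bind the MET receptor, had 1 to 16 reads per library: 16, 2, 2 and 12 under shScr, 8 and 4 under shEN1 #1, and 10 and 1 under shEN1 #2. *MUC4* (Entrez 4585, chr3:195473636-195538844, minus strand), a very large membrane mucin and ERBB2 ligand that is a known PDA antigen, had 0, 0, 4 and 1 reads under shScr, 2 and 0 under shEN1 #1, and 8 and 0 under shEN1 #2. *MUC4* was thus at 0 in 4 of 8 libraries and above the 3-count floor in 2 of them. *MUC20* averaged 0.228 ± 0.210 CPM under shScr and 0.157 ± 0.102 CPM under shEN1 (SD, n = 4 each), and its reads are uncertain because near-identical copies lie in the same region.

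*MUC16* (Entrez 94025, chr19:8959520-9121066, minus strand), whose shed product is the serum antigen CA-125 and which binds mesothelin, was detected in the same sporadic way. It had 0, 0, 2 and 8 reads under shScr, 0 and 2 under shEN1 #1, and 0 and 14 under shEN1 #2. The gel-forming mucin *MUC5B* (Entrez 727897, chr11:1244296-1283402, plus strand), a main component of airway and salivary mucus, had 0, 4, 17 and 1 reads under shScr, 0 and 16 under shEN1 #1, and 0 and 20 under shEN1 #2. Each label and construct therefore held at least 1 library with over 15 *MUC5B* reads and at least 1 at 0, the highest level being 0.615 CPM. These 4 genes (*MUC4*, *MUC5B*, *MUC16* and *MUC20*) did not pass the filter on low counts and have no test in the main fit. Their repeats make short reads hard to place.

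The trefoil factors lie within 54.9 kb of chromosome 21, in the order *TFF3*, *TFF2*, *TFF1*, all on the minus strand of GRCh37. The 3 genes differed in what they showed. *TFF3* (Entrez 7033, chr21:43731777-43735519), the intestinal goblet cell peptide, had 0 reads in all 8 libraries. *TFF1* (Entrez 7031, chr21:43782391-43786644), the peptide of gastric surface cells, was low but present in 6 libraries. *TFF2* (Entrez 7032, chr21:43766466-43771106), the spasmolytic polypeptide of gastric neck and gland cells, reached the highest level per length of any member.

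*TFF2* counts were 4, 18, 30 and 143 under shScr (0.121, 0.485, 0.861 and 3.82 CPM), 28 and 12 under shEN1 #1 (0.784 and 0.353 CPM), and 132 and 16 under shEN1 #2 (3.35 and 0.492 CPM). A pair of libraries, shScr replicate 4 and shEN1 #2 replicate 1, therefore stood far above the other 6, and this is the same pair that was closest over all genes. From lowest to highest, *TFF2* CPM spanned 31.7-fold, against 17.0-fold for *MUC13* and 4.47-fold for *MUC1*. *TFF2* made up 60.9% and 66.0% of all member reads in that pair and 3.0% to 24.6% elsewhere, while *MUC1* made up 25.5% and 22.0% in the pair and 23.7% to 68.7% elsewhere. With bulk RNA, fewer cells making *TFF2* and less *TFF2* RNA in each cell cannot be told apart.

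*TFF1* showed the opposite arrangement. Its counts were 10, 12, 12 and 0 under shScr (0.301, 0.324, 0.344 and 0 CPM), 6 and 10 under shEN1 #1 (0.168 and 0.294 CPM), and 0 and 14 under shEN1 #2 (0 and 0.430 CPM). Both libraries at 0 were those with the most *TFF2*. If each fragment was counted once, a count of 0 allows up to 0.0801 CPM in shScr replicate 4 and 0.0762 CPM in shEN1 #2 replicate 1. These bounds would be higher if both mates were counted. *TFF1* and *TFF2*, whose gene bodies are 11.3 kb apart, thus did not share a pattern over these libraries. Of the 5 epithelial markers, 3 also had their 2 lowest values in that pair: *EPCAM* (234.3 and 241.0 CPM), *CDH1* (124.2 and 103.0 CPM) and the ductal keratin *KRT19* (400.3 and 320.9 CPM, against 831.5 to 1648 CPM in the other 6). The most abundant markers, *KRT8* (6486 and 6367 CPM) and *KRT18* (4254 and 4219 CPM), were instead lowest in shScr replicate 3 and shEN1 #1 replicate 1. The part of these markers in the *TFF1* and *TFF2* levels was not tested.

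This pair of libraries differed from the rest in much of the transcriptome. Of all 14333 genes tested, 18.9% had their 2 highest CPM values in shScr replicate 4 and shEN1 #2 replicate 1, and 19.2% had their 2 lowest there. Among the 4 tested members, *TFF2* was in the first class and *TFF1* in the second. *MUC1* and *MUC13* were in neither class. No tested member had its 2 extreme values in the pair of shScr replicate 3 and shEN1 #1 replicate 1.

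**Figure D1:**
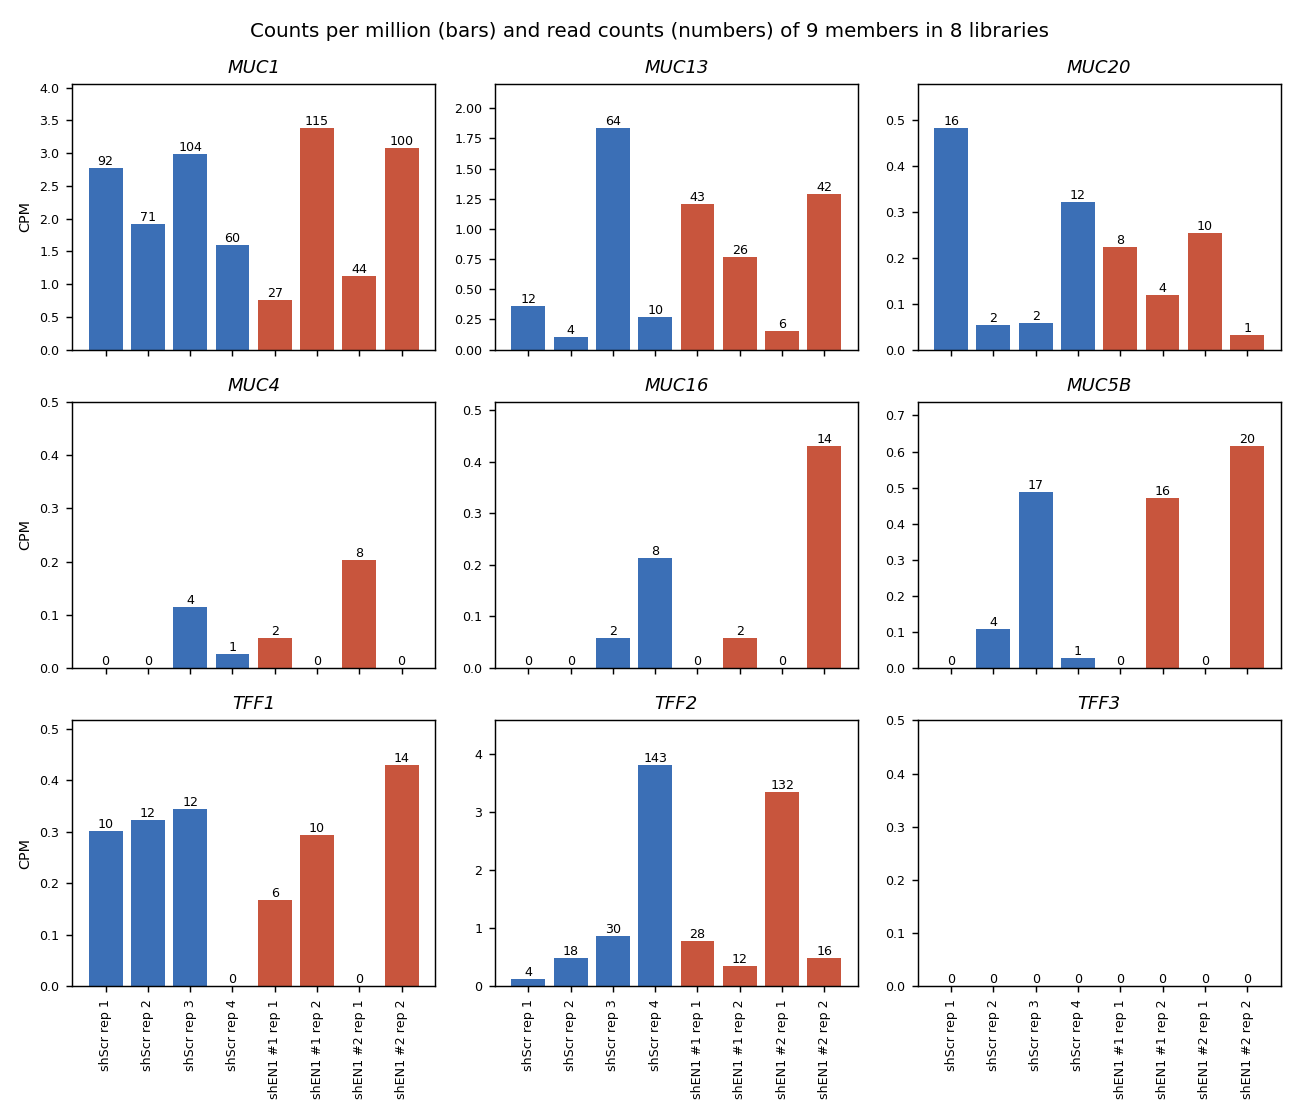
Bars give CPM and the numbers above them the read counts of the 9 listed members in each of the 8 libraries, in blue for shScr and red for shEN1, on axes that start at 0 and differ between panels. *TFF2* was tall in 1 library of each label (143 and 132 reads), *TFF1* was at 0 in those same libraries, and *TFF3* was at 0 in all 8.

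Levels of different genes were compared per length, as RPKM (CPM divided by the exon length in kilobases). In mean RPKM over 8 libraries, *TFF2* came first at 1.84 (0.172 to 5.46), followed by *MUC1* at 0.917 (0.315 to 1.41), *TFF1* at 0.473 (0 to 0.874), *MUC13* at 0.214 (0.0309 to 0.525) and *MUC20* at 0.0282 (0.00449 to 0.0705). *MUC5B* (0.0115), *MUC4* (0.00238), *MUC16* (0.00215) and *TFF3* (0) closed the order. The ranges of every pair of neighbours in this order that had reads overlapped, so the order is firm only across wider steps. *MUC1*, for example, was higher in its lowest library than *MUC20*, *MUC5B*, *MUC4* and *MUC16* were in their highest.

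*MUC1* held the highest RPKM of the members in 5 libraries and *TFF2* in 3. Both were modest on the scale of the whole transcriptome: of 22469 genes with a length, silent ones included, 58.5% had a lower mean RPKM than *TFF2* and 52.4% a lower one than *MUC1*. For *TFF1*, *MUC13* and *MUC20* these shares were 48.1%, 43.8% and 34.4%. By comparison, *KRT19* averaged 418.8 RPKM and *CD164*, a small mucin-like sialoprotein, 39.3 RPKM.

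**Figure D2:**
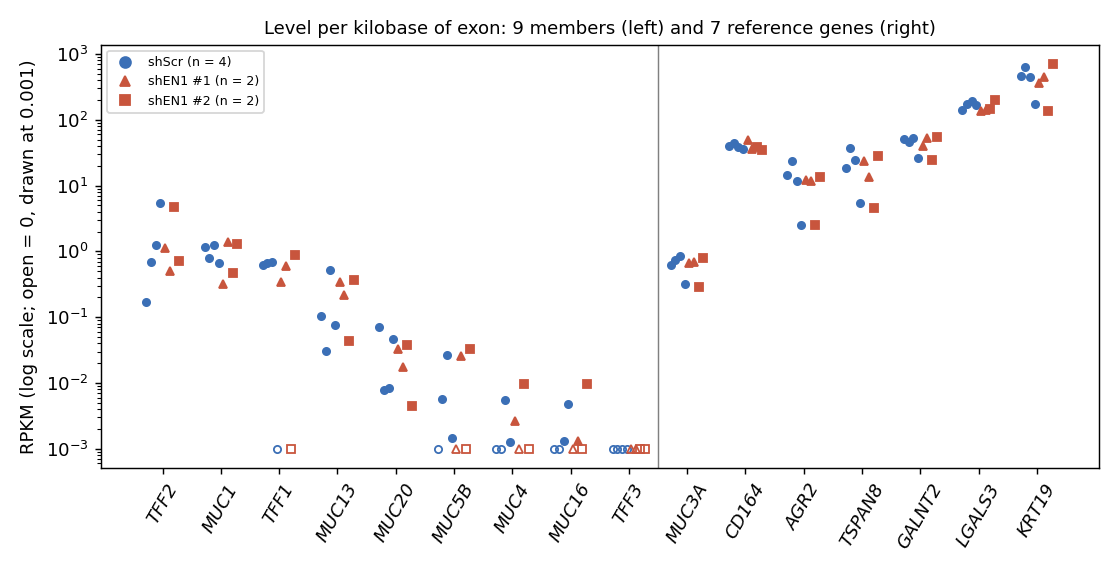
RPKM in each library is drawn on a log scale for the 9 members at the left, ordered by their mean, and for 7 reference genes at the right, with circles for shScr, triangles for shEN1 #1 and squares for shEN1 #2; open symbols are values of 0, drawn at 0.001. *TFF2* and *MUC1* led the members at means of 1.84 and 0.917 RPKM, far under *KRT19* at 418.8 RPKM.

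The central comparison, shEN1 against shScr, asked whether the members differed between these labels. None of the 4 tested members was called at an adjusted p below 0.05 by edgeR's quasi-likelihood test, where 0% of the 14333 genes were called, by limma-voom, which called 0 genes, or by DESeq2, which called 0.014% (2 genes). At an unadjusted p below 0.05, edgeR gave 0 members and 0.307% of all genes (44 genes). The 4 shEN1 values lay entirely above or below the 4 shScr values for 0 of the members and for 0.419% of all genes.

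As log2 fold changes of shEN1 over shScr, *MUC1* was at -0.16 (SE 0.48), *MUC13* at 0.40 (SE 0.86), *TFF1* at -0.13 (SE 1.02) and *TFF2* at -0.08 (SE 0.99). Every adjusted p was 1 (edgeR, n = 4 each). The 95% intervals ran from -1.23 to 0.91 for *MUC1*, from -1.51 to 2.32 for *MUC13*, from -2.40 to 2.13 for *TFF1* and from -2.31 to 2.14 for *TFF2*. A change of 1 log2 unit in either direction would lie inside the interval for *MUC13*, *TFF1* and *TFF2*, so such a change is not excluded for them. For *MUC1*, a fall of that size lies inside the interval and a rise lies just outside it.

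The constructs taken singly gave the same picture for *MUC1*, at -0.16 (SE 0.63) for shEN1 #1 and -0.15 (SE 0.63) for shEN1 #2. *MUC13* stood at 0.62 (SE 1.08) and 0.15 (SE 1.11) for these constructs, and *TFF1* at -0.06 (SE 1.32) and -0.20 (SE 1.33). For *TFF2* the estimates had opposite signs, at -1.21 (SE 1.27) for shEN1 #1 and 0.54 (SE 1.15) for shEN1 #2 (n = 2 each against 4), and the constructs differed by 1.75 (SE 1.42, 95% interval -1.48 to 4.99, adjusted p = 1.00 by edgeR). Of all genes, 0% were called for shEN1 #1, 0% for shEN1 #2 and 0% between the constructs, and the comparisons of the constructs share the 4 shScr libraries.

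**Figure D3:**
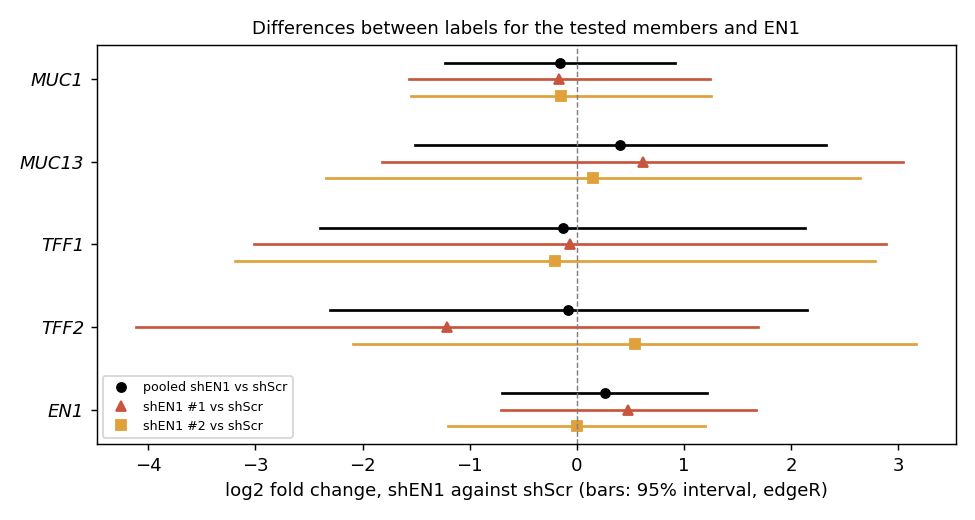
Points are log2 fold changes of shEN1 over shScr by edgeR and bars their 95% intervals, for both constructs pooled (black circles), shEN1 #1 (red triangles) and shEN1 #2 (yellow squares). Every interval crosses 0, and that of *MUC1*, from -1.23 to 0.91 in the pooled fit, is the narrowest of the 4 members.

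The size or sign of each estimate changed as single libraries were left out. For *TFF2* the log2 fold change was 1.35 without shScr replicate 4 and -1.28 without shEN1 #2 replicate 1. With both left out it was 0.14, on means of 0.489 ± 0.370 CPM for shScr and 0.543 ± 0.220 CPM for shEN1 (SD, n = 3 each). The similar *TFF2* means of the labels thus held 1 very high library on each side, and the means of the other 6 libraries differed by less than their spread.

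*MUC13* moved from 0.40 to 1.79 without shScr replicate 3, its highest library, and was 0.05 without shScr replicate 2, its lowest. *MUC1* lay between -0.50 and 0.12 as libraries were left out in turn, turning positive without shEN1 #1 replicate 1 (0.12) or shEN1 #2 replicate 1 (0.05). *TFF1* lay between -0.66 and 0.29, turning positive without shScr replicate 2 (0.04), shScr replicate 3 (0.09) or shEN1 #2 replicate 1 (0.29). No member was called in any of these fits.

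**Figure D4:**
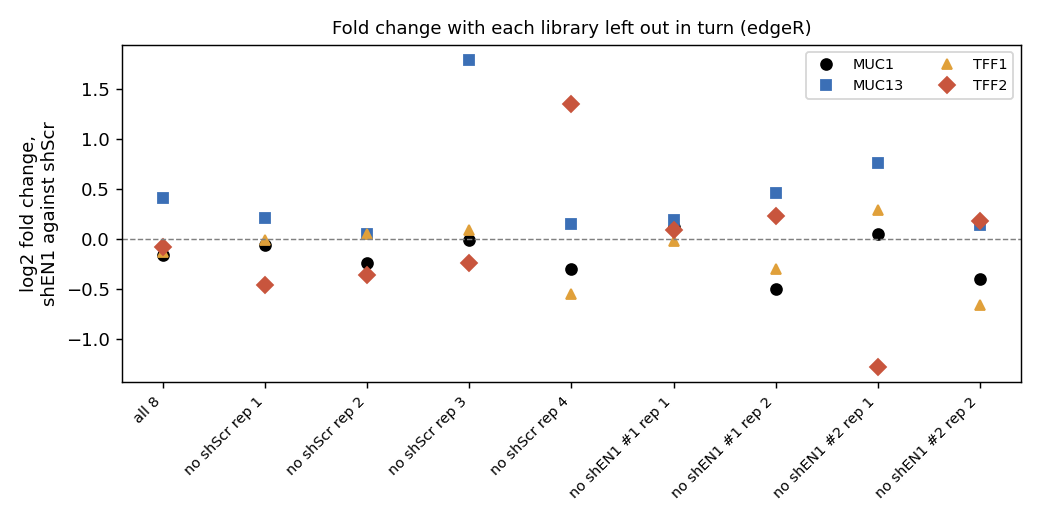
Symbols are log2 fold changes of shEN1 over shScr by edgeR with all 8 libraries and with each library left out in turn, for *MUC1* (black circles), *MUC13* (blue squares), *TFF1* (yellow triangles) and *TFF2* (red diamonds). *TFF2* ranged from -1.28 to 1.35 and *MUC13* from 0.05 to 1.79, each extreme following from 1 library.

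Most other mucin genes had too few reads for a test as well. Of 15 further mucin symbols, 3 had enough reads for a test, of which 1 was higher and 2 were lower under shEN1 without any call (median log2 fold change -0.05, against -0.003 over all genes tested). *CD164*, which carries mucin-type sugars on many cell types, was abundant at 269.3 ± 24.4 and 270.2 ± 48.2 CPM (SD, n = 4 each, shScr first here and below). The intestinal membrane mucin *MUC3A* was at 3.49 ± 1.26 and 3.37 ± 1.23 CPM, and its mean of 0.620 RPKM lay between those of *MUC1* and *TFF1*, although it can share reads with its copy *MUC3B*. *MUC12*, another intestinal membrane mucin, stood at 0.892 ± 0.263 and 0.514 ± 0.258 CPM (log2 fold change -0.79, SE 0.46, adjusted p = 1 by edgeR). *OVGP1*, an oviduct glycoprotein, was at 0.362 ± 0.160 and 0.249 ± 0.244 CPM and was not tested.

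Most of the listed enzymes that build mucin sugars had enough reads for a test, whereas most of the members did not. Of 24 genes of mucin-type O-glycosylation, 22 were tested, with 10 higher, 12 lower and 0 called under shEN1 (median -0.03). *GALNT2*, *GALNT7* and *GALNT10*, which belong to the family that attaches the first sugar, averaged 335.7 ± 90.7, 165.8 ± 67.8 and 115.3 ± 35.7 CPM under shScr and 329.3 ± 106.1, 157.8 ± 43.7 and 121.3 ± 38.2 CPM under shEN1 (SD, n = 4 each). *ST3GAL1*, which caps core sugars with sialic acid, was at 101.4 ± 47.4 and 101.4 ± 45.4 CPM. Its wide spread came from shScr replicate 4 and shEN1 #2 replicate 1, at 32.0 and 33.4 CPM against 111.7 to 136.6 CPM in the other 6. That pair held the 2 lowest values for 13 of the 22 tested genes (59.1%) and the 2 highest for 3 (13.6%), beside 19.2% and 18.9% of all genes.

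The mucous secretory machinery and its regulators gave no call either. Of 20 genes, 14 were tested, with 4 higher, 10 lower and 0 called under shEN1 (median -0.04). For 12 of the 14 (85.7%), the 2 lowest values lay in shScr replicate 4 and shEN1 #2 replicate 1, beside 19.2% of all genes. The margin in this pair was narrow for *XBP1*, at 104.9 and 97.8 CPM against 106.5 CPM in shScr replicate 3. *AGR2*, the disulfide isomerase that folds secreted mucins, was at 6.86 and 6.88 CPM in that pair and at 32.0 to 64.1 CPM elsewhere. *HNF4A*, an endodermal transcription factor, was at 14.4 and 14.9 CPM there and at 36.1 to 52.7 CPM elsewhere. *KLF5*, a factor of proliferating epithelium, and *XBP1*, which drives the secretory programme of the endoplasmic reticulum, averaged 262.9 ± 27.7 and 118.0 ± 15.0 CPM under shScr and 255.9 ± 46.7 and 114.4 ± 11.8 CPM under shEN1 (SD, n = 4 each). *TFF2* was thus highest, and *TFF1* at 0, in the libraries that held the least *AGR2* and *HNF4A*. The same pair also held the least *EN1*, at 2.51 CPM in shScr replicate 4 and 1.35 CPM in shEN1 #2 replicate 1. Elsewhere *EN1* was at 4.10 to 6.70 CPM. The part of *EN1*, *AGR2* or *HNF4A* in the *TFF1* and *TFF2* levels was not tested.

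Among 14 gastric and foregut secretory genes, 7 were tested, with 5 higher, 2 lower and 0 called under shEN1 (median 0.30). *TSPAN8*, a tetraspanin of gastrointestinal epithelium, was at 12.9 and 11.2 CPM in the same pair of libraries and at 33.0 to 89.1 CPM elsewhere, the reverse of *TFF2*. The foregut factor *ONECUT2* averaged 105.1 ± 21.2 and 117.7 ± 12.5 CPM. *ANXA10* and *VSIG1*, both gastric epithelial genes, averaged 2.52 ± 1.83 and 2.06 ± 0.758 CPM under shScr and 3.33 ± 4.15 and 2.66 ± 0.869 CPM under shEN1 (SD, n = 4 each). The pair held the 2 highest values for 1 of these 7 genes and the 2 lowest for 3.

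Of 9 receptors and partners of mucins and trefoil factors, 8 were tested, with 3 higher, 5 lower and 0 called (median -0.03). *CD44*, the hyaluronan receptor, was at 879.6 ± 200.1 and 875.7 ± 171.7 CPM. *MET* and *EGFR*, receptor tyrosine kinases that membrane mucins can engage, were at 616.9 ± 132.6 and 410.0 ± 98.4 CPM under shScr and at 653.8 ± 112.0 and 421.3 ± 102.8 CPM under shEN1 (SD, n = 4 each). *LGALS3*, a lectin that binds sugars on *MUC1*, was at 368.2 ± 45.3 and 341.1 ± 66.8 CPM. Per length, *LGALS3* (161.3 RPKM), *MET* (88.0 RPKM), *CD44* (87.8 RPKM) and *EGFR* (26.1 RPKM) were all far above *MUC1* (0.917 RPKM).

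*TFF2* had the widest range in log2 CPM of the 4 tested members (4.45, against 3.53 for *MUC13*, 3.11 for *TFF1* and 2.08 for *MUC1*), so the genes most like it were looked for. By the root mean square difference of centred log2 CPM over 8 libraries, the nearest 5 were *MESP1*, a mesodermal transcription factor (0.214), *CPE*, a prohormone-processing carboxypeptidase (0.270), *SEMA3G*, a secreted semaphorin (0.301), *ATP8B2*, a phospholipid flippase (0.330), and *KIRREL2*, an adhesion protein (0.359). As they were chosen for likeness, their patterns are a description. *ATP8B2* was at 1.36, 2.40, 4.76 and 16.9 CPM under shScr, 3.14 and 1.68 CPM under shEN1 #1, and 18.5 and 2.03 CPM under shEN1 #2. *MESP1* ran from 0.0603 CPM in shScr replicate 1 to 2.03 CPM in shScr replicate 4. All 5 were highest in shScr replicate 4 and shEN1 #2 replicate 1, and lowest in shScr replicate 1.

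**Figure D5:**
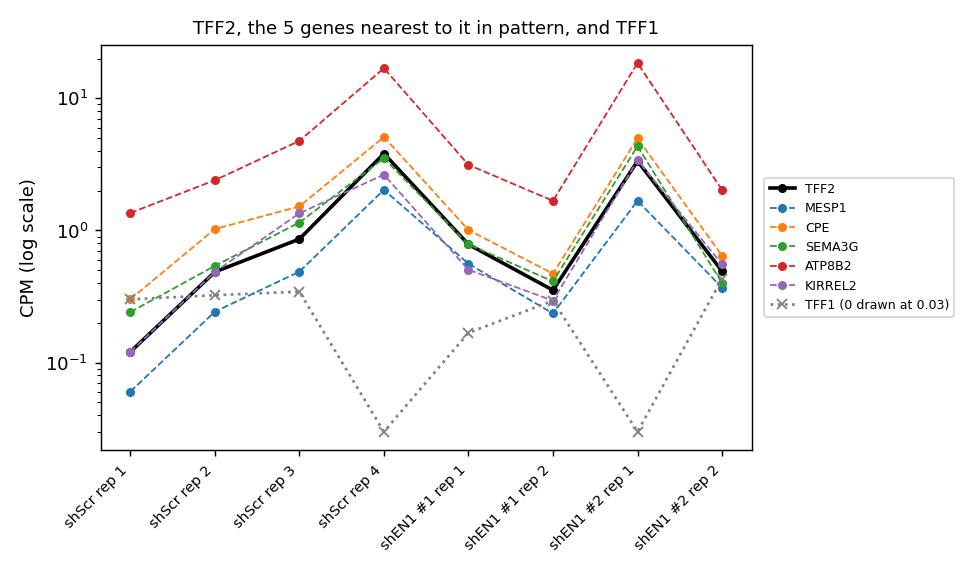
CPM in the 8 libraries is drawn on a log scale for *TFF2* (black line), for the 5 genes chosen as nearest to it and for *TFF1* (grey crosses, values of 0 drawn at 0.03); lines only join values of a gene. *TFF2* and its nearest genes peaked in shScr replicate 4 and shEN1 #2 replicate 1, at 3.82 and 3.35 CPM for *TFF2*, where *TFF1* had 0 reads.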

How the data were processed

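Poly(A) RNA of SUIT2 cells was sequenced by the study in 8 libraries. For each library the authors deposited raw counts, whole numbers per Entrez gene with no normalization. They aligned reads to hg19 with HISAT2 and counted with featureCounts. Versions, annotation and strand setting are not given in the sources used here, and the labels also list a murine build. Overlapping genes may therefore share reads. Libraries were grouped by their labels.

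Of 25702 identifiers, 23696 were matched to symbols through RefSeq's GRCh38.p14 table, used for names only; the other 2006 held at most 0.257% of a library's counts. Positions and exon lengths (union of all exons, which understates RPKM where few are used) are from GENCODE for GRCh37, the build of hg19. Genes were filtered (filterByExpr, minimum count 10), TMM-normalized and tested with edgeR 4.0.16 (glmQLFit, robust) in R 4.3.3, with Benjamini-Hochberg adjustment over 14333 genes and a threshold of 0.05. No libraries were duplicates, since the lowest chi-square per gene among the 28 pairs was 10.6, where counting noise gives about 1. DESeq2 1.42.0, limma 3.58.1 (voom), other scalings and filters, a replicate block and left-out libraries were alternatives. Log2 CPM used a prior count of 2.

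The members and lists were chosen with earlier results of these data known. Named were the members, *EN1*, up to 4 genes of highest mean CPM per list, list genes called in any fit, and the 5 genes nearest to the member of widest range. *KRT8*, *KRT18*, *KRT19* and *EPCAM* fell under the rule as epithelial markers, and *CDH1* was named after its values were seen.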

Additional observations from a re-analysis of the deposited data

Results flagged for a closer look

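In 4 of the members' groups of 4 libraries, 1 library lay apart from the others of its label by Dixon's criterion, as did 1 normalization factor. *MUC13* was at 1.84 CPM in shScr replicate 3, against a next value of 0.362 CPM. *MUC16* was at 0.430 CPM in shEN1 #2 replicate 2, against 0.0589 CPM. *TFF1* was at 0 CPM in shScr replicate 4, against 0.301 CPM. *TFF2* was at 3.35 CPM in shEN1 #2 replicate 1, against 0.784 CPM. The normalization factor of shEN1 #2 replicate 1 was 1.07, against 0.981. These are 5 of 24 groups examined, where chance alone would give about 1.2 if the groups were independent. As the groups share libraries and many hold counts near 0, that figure is no test of an excess.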

How the results depend on the processing

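No member was called in any of 20 alternatives. *MUC13* kept its sign in all 19 that gave it a value (0.05 to 2.13, adjusted p 0.413 to 1), and *EN1* in all 20 (0.04 to 0.57). Genes called over the transcriptome numbered 0 in the main comparison, 2 with DESeq2, 1 with the replicate block, 0 to 1 as single libraries were left out (1 without shScr replicate 4), 1 with shScr replicate 4 and shEN1 #2 replicate 1 both left out, and 1 with shScr replicate 3 and shEN1 #1 replicate 1 left out as well. *VAMP7*, named after its values were seen, was called each time, and DESeq2 also called Entrez gene 100507676, which no symbol matched. For shEN1 #1 alone, DESeq2 called 3 genes (these and *EIF3CL*) and a fit of only the libraries compared called 1 (100507676), against 0.

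The log2 fold change of *TFF2* changed sign with limma-voom (0.30), the replicate block (1.45), the first pair of libraries left out (0.14) and all 4 left out (0.45), and ran from -1.28 to 1.35 as single libraries were left out. Those of *MUC1* and *TFF1* changed sign without shScr replicate 3 and shEN1 #1 replicate 1 (0.27 and 0.20) and with all 4 left out (0.46 and 0.21), and ran from -0.50 to 0.12 and from -0.66 to 0.29 as single libraries were left out. Apart from the left-out libraries, the cause was not tested. Adjusted p stayed at 0.663 to 1 for *MUC1*, 0.959 to 1 for *TFF1* and 0.893 to 1 for *TFF2*.

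Libraries that share a replicate number correlated at -0.332 to 0.437 in their deviations from the group means. With 2 libraries per construct these correlations are not independent, so they cannot settle whether the numbers pair libraries. With the block, *MUC1* was at -0.52, *MUC13* at 1.85, *TFF1* at -0.78 and *EN1* at 0.10. Under a filter of at least 10 counts in every library, *MUC13*, *TFF1* and *TFF2* had no value. The filter on low counts left *MUC4*, *MUC5B*, *MUC16*, *MUC20* and *TFF3*, at 0 to 58 reads each over all 8 libraries, without a test in the main fit. Without a filter all of these but *TFF3* had a value, and none was called.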

Other observations

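*SOX2*, a foregut transcription factor in the gastric and foregut list, was chosen after its values were seen. Its counts were 13, 12, 55 and 125 under shScr, 47 and 47 under shEN1 #1, and 143 and 20 under shEN1 #2. It was thus highest in shScr replicate 4 and shEN1 #2 replicate 1, as *TFF2* was, and it was the 1 gene of that list whose 2 highest CPM values lay there (3.34 and 3.63 CPM). *GALNT3*, which like *GALNT2* starts mucin O-glycans and was also chosen after its values were seen, was at 5.79 and 3.23 CPM in that pair and at 17.9 to 49.1 CPM in the other 6. *FCGBP*, a mucus protein chosen in the same way, was highest in shScr replicate 3 at 33.8 CPM, the library that also held the most *MUC13*. The gel-forming mucin *MUC2*, also described after its values were seen, had 0 reads in every shScr library. It had 4 and 2 reads under shEN1 #1 and 2 and 2 under shEN1 #2, too few to pass the filter on low counts. Counts of 2 lie below the floor of 3 counts, so this split between the labels is not a result about *MUC2*. Label ranges did not overlap for 0.419% of the genes tested, and the share among genes below the filter is not given here. *MUC6*, another gel-forming mucin, had 4 reads in shScr replicate 4, 2 in shEN1 #2 replicate 1 and 0 elsewhere.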
